A study of Mus musculus with 24 samples.

Results

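The hypothalamus of obese mice given saline was described from 6 RNA-seq libraries, those of the saline group in which growth hormone (Gh), the main product of pituitary somatotrophs, was below 1000 CPM, counts scaled to the total of the library. They carried the replicate numbers 1, 4, 5, 6, 7 and 8 and came from a series of 24 libraries. Gh was 0.122 to 2.44 CPM in these 6, and 31688 and 52238 CPM in the 2 saline libraries that were left out. Because Gh chose the libraries, levels of pituitary genes are given as description. All groups were male mice with obesity induced by diet, of 53 g mean body weight and housed in pairs, and whole hypothalamus was taken 2 h after the last of 5 daily injections. The saline group received isotonic saline. The 8 PSD-95i libraries came from mice given UCCB01-147 at 25 mg/kg, an inhibitor of the synaptic scaffold protein PSD-95, and the 8 PICK1i libraries from mice given mPD5 at 56 mg/kg, an inhibitor of the scaffold protein PICK1. The protocol lists 6 saline mice while the labels list 8 saline libraries, and which mouse gave which library is not stated, so spread between libraries may be partly technical. The labels give no lean or uninjected mice, so the values describe obese, injected animals.

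The hypothalamus is a small region at the base of the brain that sets hunger, water balance, body temperature, sleep and the release of pituitary hormones. Its neurons signal to a large extent by neuropeptides, which are cut from precursor proteins and act on receptors of other neurons, and each nucleus is known by the peptides and transcription factors it expresses. It borders the third ventricle, the pituitary stalk and the membranes at the base of the brain, so whole dissections can hold cells of these neighbours.

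The 6 libraries held 5727283 to 8163266 estimated counts each, with a median of 7905624. No 2 of them held identical values (0 of 15 pairs). Genes of the labelled tissue were detected. A mean of at least 1 TPM was reached by 38 of 39 hypothalamic transcription factors and 42 of 49 neuropeptide precursors. TPM is the level per transcript length, scaled to a fixed total per library, that is used here to compare genes. Over all genes with a value, 16382 of 45356 reached it. So did 13 of 13 thalamic and 13 of 14 cortical and hippocampal markers, so these counts do not tell the hypothalamus from neighbouring regions. Of 12 markers of the anterior pituitary, its pars tuberalis included, 4 reached 1 TPM, and the lineage factor Pou1f1 was at 0 in every library. Their summed level was 1.59 to 51.6 TPM and was highest in replicates 6, 4 and 8, where Cga, the shared subunit of the glycoprotein hormones, made up most of it at 39.1, 21.7 and 21.05 TPM, against 0 to 0.8001 TPM in the other 3. Levels in bulk tissue mix cell number and RNA per cell, and fewer cells of a type and less RNA per cell cannot be told apart here.

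Transcripts of the mitochondrial genome led the abundance ranks. They held 18.7% ± 0.787 of all TPM (SD, n = 6, as for every ± below unless another n is named), and 13 of the 20 most abundant genes were among them. The highest level was that of mt-Co1, a cytochrome c oxidase subunit, at 28778 ± 1127 TPM, and mt-Cytb and mt-Co2 followed at 22109 ± 1335 and 21748 ± 1284 TPM. mt-Atp6, mt-Nd1 and mt-Co3 ranked 4 to 6. Among nuclear protein-coding genes the highest level was that of Apoe, the lipid carrier secreted mainly by astrocytes, at 6466 ± 165 TPM and rank 14. Fth1, the ferritin heavy chain, reached 4621 ± 511 TPM and Eef1a1, a translation elongation factor, 4105 ± 174 TPM. Mbp, a structural protein of myelin, followed outside the first 20 at 3317 ± 483 TPM. Apoe and Eef1a1 differed little between libraries, at 6287 to 6692 TPM and 3956 to 4416 TPM.

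Several entries among the first 20 are uncertain as gene levels. The non-coding gene Yam1 has 2 overlapping entries on opposite strands of chromosome 17 (GRCm38), at 14316 ± 4139 and 6528 ± 1637 TPM, and whether the authors' counting used strand is not stated in the sources used here. Gm29216, a pseudogene copy of mitochondrial sequence on chromosome 1, was at 4599 ± 312 TPM and could share reads with the mitochondrial genome. Rn7s2, a small cytoplasmic RNA with near-identical copies, was at 4134 ± 965 TPM.

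Abundance was concentrated in few genes. The 10 highest genes held 17.1% of TPM, the 100 highest 33.3% and the 1000 highest 60.1%, and 486 genes together held 50%. In all, 25096 genes had a count in at least 1 of the 6 libraries. Of these, 16382 reached a mean of 1 TPM, 10161 reached 10 TPM, 1630 reached 100 TPM and 75 reached 1000 TPM. The top of the ranking was shared between libraries: 97 of the 100 genes with the highest mean were among the first 200 in every library.

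A few neuropeptide precursors were abundant messages, led by the hormones of the posterior pituitary and by melanin-concentrating hormone. The median of the 49 precursors measured was 11.5 TPM. Avp, which encodes vasopressin, was at 857 TPM at the lowest, 1026 at the median and 1791 at the highest (mean 1142 ± 339, rank 56). Pmch, the precursor of melanin-concentrating hormone of lateral hypothalamic neurons, ranged from 595 over a median of 854 to 1541 TPM (mean 927 ± 338, rank 81). Oxt, which encodes oxytocin, ranged from 449 over 818 to 1058 TPM (mean 770 ± 219, rank 104). Sst, which encodes somatostatin, ranged from 561 over 599 to 738 TPM (mean 636 ± 77.2, rank 148). Neighbours in this order overlapped in range, and each was above the next in 4 of 6 libraries, so their order is not resolved beyond the spread. Avp and Sst, the ends of the 4, did not overlap. The gap below Sst was the only one among the 13 neighbouring pairs at the top of the list where ranges did not overlap.

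Precursors that act on feeding from the arcuate nucleus were lower. Cartpt, which encodes the appetite-reducing peptide CART, was at 282 ± 50.4 TPM and Pomc, the precursor of melanocortins, at 223 ± 61.7 TPM. Npy, which encodes the appetite-raising neuropeptide Y, was at 80.2 TPM at the lowest, 146 at the median and 218 at the highest (mean 147 ± 45.4, rank 1033). Agrp, which encodes an antagonist of melanocortin receptors made in the same neurons, was at 6.88, 10.2 and 17.8 TPM at the lowest, median and highest (mean 10.8 ± 3.79, rank 9878). Agrp rested on 17 to 51 counts per library, and an antisense gene overlaps it, whose reads cannot be told apart from it without strand. Npy was above Agrp in each of the 6 libraries.

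Other abundant precursors were Hcrt (orexin, which keeps animals awake) at 256 ± 213 TPM, Trh (thyrotropin-releasing hormone) at 232 ± 68.1, Penk (enkephalin) at 201 ± 19.8 and Gal (galanin) at 150 ± 21.03 TPM. Of the 49 precursors measured, 12 reached 100 TPM and 26 reached 10 TPM. Crh, which drives the stress axis, was lower, at 2.56 to 12.7 TPM. Ucn was listed at 0 in all 6 libraries, which with 45329308 counts in all allows up to 0.0662 CPM (3 counts over the 6 libraries, counting error only). Short messages are the most sensitive to how length is counted: with annotated length less 200 bases, Hcrt moved above Cartpt, Pomc above Trh and Npy above Gal, while the first 4 kept their order.

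**Figure D1:**
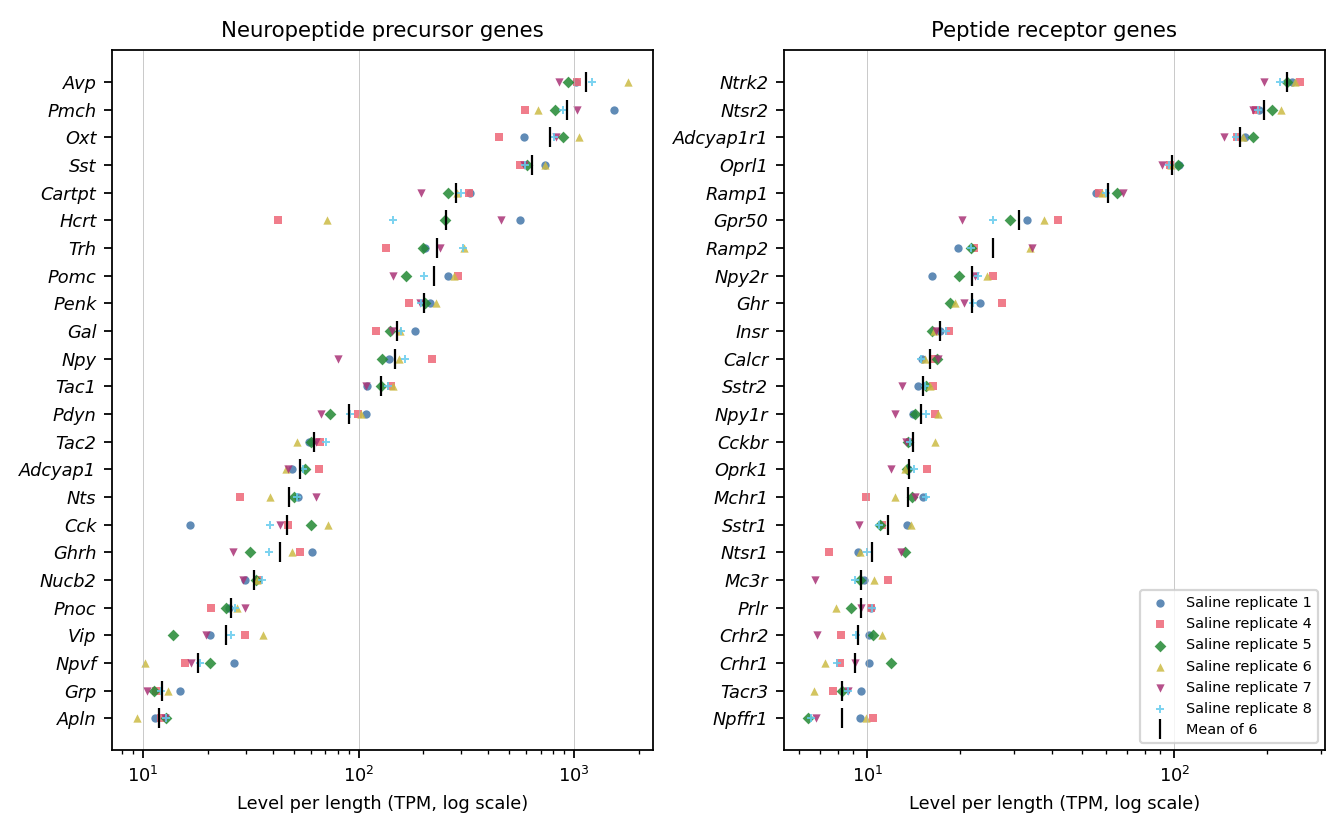
Levels per length in TPM (log axis) of the 24 most abundant neuropeptide precursor genes (left) and peptide receptor genes (right), with a symbol for each of the 6 saline libraries and a bar at their mean. Avp, Pmch, Oxt and Sst overlap at the top, Hcrt spreads from 42.5 to 565 TPM, and most receptors lie below the precursors.

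Precursors did not vary together. Pmch and Hcrt, both made in the lateral hypothalamus, were highest in replicate 1 and lowest in replicate 4. Npy, Agrp and Pomc, all arcuate, were highest in replicate 4, and Npy, Pomc, Cartpt, Ghrh (growth hormone-releasing hormone) and Pdyn (dynorphin) were lowest in replicate 7. Avp, Oxt and Vip, the last known from the suprachiasmatic nucleus, were highest in replicate 6. Crh was highest in replicate 1 and lowest in replicate 4, as Pmch and Hcrt were.

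The machinery that packs and cuts these peptides was abundant and steady. Cpe, the carboxypeptidase that trims them, was at 1474 ± 83.2 TPM, Pcsk1n, an inhibitor of a prohormone convertase, at 1147 ± 195 and Resp18, a protein of dense-core granules, at 1030 ± 58.8 TPM. Ptprn, a membrane protein of these granules, was at 644 ± 60.7 and the granin Scg2 at 519 ± 21.9 TPM. All 20 genes of this list were above 10 TPM and 15 were above 100 TPM. Their median coefficient of variation between libraries beyond counting error (defined below) was 5.72%, against 25.8% for the 27 precursors measured and 5.07% for all genes.

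Peptide receptors were widely detected but low. Of 55 measured, 52 reached 1 TPM, 18 reached 10 and 3 reached 100 TPM. The highest was Ntrk2, which encodes TrkB, the receptor of brain-derived neurotrophic factor, at 195, 238 and 257 TPM at the lowest, median and highest (mean 233 ± 22.04, rank 586). Ntsr2, a neurotensin receptor of astrocytes, was at 195 ± 16.3 TPM, Adcyap1r1, the receptor of PACAP, at 164 ± 11.8 and Oprl1, the nociceptin receptor, at 97.9 ± 4.59 TPM. Ramp1, a partner protein of calcitonin-type receptors, was at 60.6 ± 4.98 TPM, followed by Gpr50 (31.3 ± 7.94), Ramp2 (25.6 ± 6.67), Npy2r (21.9 ± 3.39) and Ghr (21.9 ± 3.26 TPM). From Ntsr2 down to Gpr50, ranges of neighbours did not overlap, while Ntrk2 and Ntsr2 overlapped in range although Ntrk2 was higher in each library.

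Receptors for signals of the body's energy stores lay on both sides of the list's median of 7.26 TPM. Insr, the insulin receptor and number 10 by mean of the 55, was at 16.2, 16.996 and 18.5 TPM (mean 17.2 ± 0.912). Lepr, the leptin receptor, was at 2.02, 3.07 and 4.28 TPM (mean 3.12 ± 0.784, rank 13555) and rested on 34 to 70 counts per library. The melanocortin receptors Mc3r and Mc4r were at 9.54 ± 1.64 and 4.44 ± 1.18 TPM, Ghsr, the ghrelin receptor, at 3.78 ± 0.645 and Glp1r, the receptor of glucagon-like peptide 1, at 1.21 ± 0.358 TPM. Insr was above each of these 5 receptors in every library. Ranges of Lepr, Mc4r and Ghsr overlapped, so their order is not resolved.

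Messages with different signalling ends are known for both Ntrk2 and Lepr, and the transcript table separates them. These genes were chosen after their values were seen, and the split is the authors' estimate from short reads. The coding sequences below (GENCODE M21, GRCm38, 5′ to 3′) show where the transcripts part: lower case marks the last 21 coding bases that the transcripts of a gene share, and capitals mark the coding bases of that transcript alone, up to 60 of them. Ntrk2 lies on the plus strand at chr13:58806569-59133970 and Lepr on the plus strand at chr4:101717404-101815352.
Ntrk2-201: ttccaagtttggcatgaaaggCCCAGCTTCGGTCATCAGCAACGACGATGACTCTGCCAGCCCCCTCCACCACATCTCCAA
Ntrk2-202: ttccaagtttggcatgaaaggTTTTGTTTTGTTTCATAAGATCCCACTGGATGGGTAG
Lepr-201: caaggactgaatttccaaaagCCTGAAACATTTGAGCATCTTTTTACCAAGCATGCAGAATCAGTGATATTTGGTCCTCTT
Lepr-202: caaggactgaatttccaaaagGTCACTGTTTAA
Lepr-203: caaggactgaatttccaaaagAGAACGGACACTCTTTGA

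Ntrk2-201 encodes full-length TrkB of 821 amino acids with its kinase, and Ntrk2-202 a form of 476 amino acids that stops shortly after the sequences part. The short form made up 68.1% ± 1.06 of Ntrk2 abundance per length (67.0% to 69.8%), and the full-length form 31.9% ± 1.06, with at least 2051 counts in every library. The short form was therefore the larger share in each of the 6 libraries, and it was 68.2% ± 1.31 in PSD-95i (n = 8) and 69.0% ± 2.37 in PICK1i (n = 8). Of Lepr, the long form Lepr-201 of 1162 amino acids, the one that carries the signalling tail, made up 68.7% ± 13.1, with 22 to 47 counts per library. Lepr-202 (892 amino acids) made up 18.3% ± 4.51 and Lepr-203 (894 amino acids) 11.9% ± 10.5. Lepr-201 was the largest share in each library, from 49.3% in replicate 7 to 89.0% in replicate 1.

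The targets of the 2 compounds of the series were both present at baseline. Dlg4, which encodes PSD-95, was at 457, 510 and 572 TPM (mean 511 ± 39.0, rank 199), above each of the glutamate receptor subunits in its list. Pick1 was at 61.5, 66.3 and 71.1 TPM (mean 66.5 ± 3.38, rank 2566). The AMPA receptor subunits Gria1 and Gria2 were at 228 ± 16.4 and 200 ± 16.4 TPM, the NMDA receptor subunit Grin1 at 215 ± 16.7 and the kainate receptor subunit Grik5 at 123 ± 10.6 TPM. Among inhibitory receptors, the glycine receptor subunit Glrb was highest at 126 ± 7.68 TPM, and the GABA-A subunit Gabra3 was at 89.6 ± 4.19 TPM. The thyroid hormone receptor Thra, at 707 ± 30.3 TPM, was the most abundant nuclear hormone receptor of its list, and Hrh3, a histamine receptor, led the monoamine and cannabinoid receptors at 82.6 ± 7.74 TPM.

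Genes of GABA neurons were abundant beside that of glutamate neurons, and Slc32a1 was above Slc17a6 in 5 of 6 libraries. Gad1 and Gad2, which make GABA, were at 204 ± 16.3 and 116 ± 10.5 TPM, and Slc32a1, which loads it into vesicles, at 133 ± 21.7 TPM. Slc17a6, the vesicular glutamate transporter of the hypothalamus and thalamus, was at 90.1 ± 10.7 TPM. Hdc, which makes histamine, was at 72.8 ± 20.2 and Th, which starts dopamine synthesis, at 45.7 ± 11.8 TPM, while Tph2, the serotonin enzyme of the raphe, was near 0 at 0.201 ± 0.200 TPM. Transcription factors that mark hypothalamic nuclei were led by Otp at 64.4 ± 10.2 TPM, followed by Fezf1 at 28.0 ± 6.26, Six3 at 23.6 ± 3.53, Isl1 at 23.3 ± 5.71 and Zic1 at 23.2 ± 7.43 TPM.

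Markers of neurons and of all main glial classes were abundant, and the sums of neurons and astrocytes differed least between libraries. Snap25, a synaptic fusion protein, was at 1514 ± 67.6 TPM, and the 12 neuronal markers summed to 5257 to 5758 TPM, with the highest library 1.10 times the lowest. Astrocyte markers were led by Glul (1728 ± 76.4), Aldoc (1295 ± 39.0) and Ndrg2 (1082 ± 56.7 TPM), and their sum also differed only 1.07-fold. Myelin genes were led by Mbp and Mobp (1330 ± 213 TPM), and the sum of the list ran from 5887 TPM in replicate 4 to 8508 TPM in replicate 7, a range of 1.45-fold. Olig1 of the oligodendrocyte lineage was at 158 ± 15.1 TPM, and C1qa, a complement component of microglia, at 139 ± 13.7 TPM. Bsg led the endothelial list at 881 ± 52.4 TPM and Vim the tanycyte list, cells that line the ventricle floor, at 70.2 ± 14.7 TPM, though neither gene is restricted to its class.

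Markers of the leptomeninges and of red blood cells had wider ranges. The 20 leptomeningeal markers, genes of fibroblasts in the brain's inner membranes, summed to 656 TPM in replicate 1, 901 in replicate 5, 1415 in replicate 6, 2144 in replicate 8, 4288 in replicate 4 and 9648 in replicate 7, a range of 14.7-fold. Most of that sum was Ptgds, a prostaglandin D synthase that oligodendrocytes also make, at 558 to 8656 TPM. Red blood cell markers summed to 902 to 4198 TPM, with 4198, 3815 and 3334 TPM in replicates 6, 1 and 4 and 1383, 1146 and 902 TPM in replicates 7, 8 and 5. Of 12 choroid plexus markers, 7 reached 1 TPM, and their sum was 45.7 to 76.4 TPM. Clic6 led at 19.5 to 22.9 TPM and Prlr followed at 7.87 to 10.3 TPM. Ttr, the transthyretin message for which this tissue is best known, was at 1.83 to 26.8 TPM, highest in replicate 7, and Folr1 and Kcne2 had means of 0.322 and 0.280 TPM. Markers of fat cells summed to 0.680 to 2.02 TPM.

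**Figure D2:**
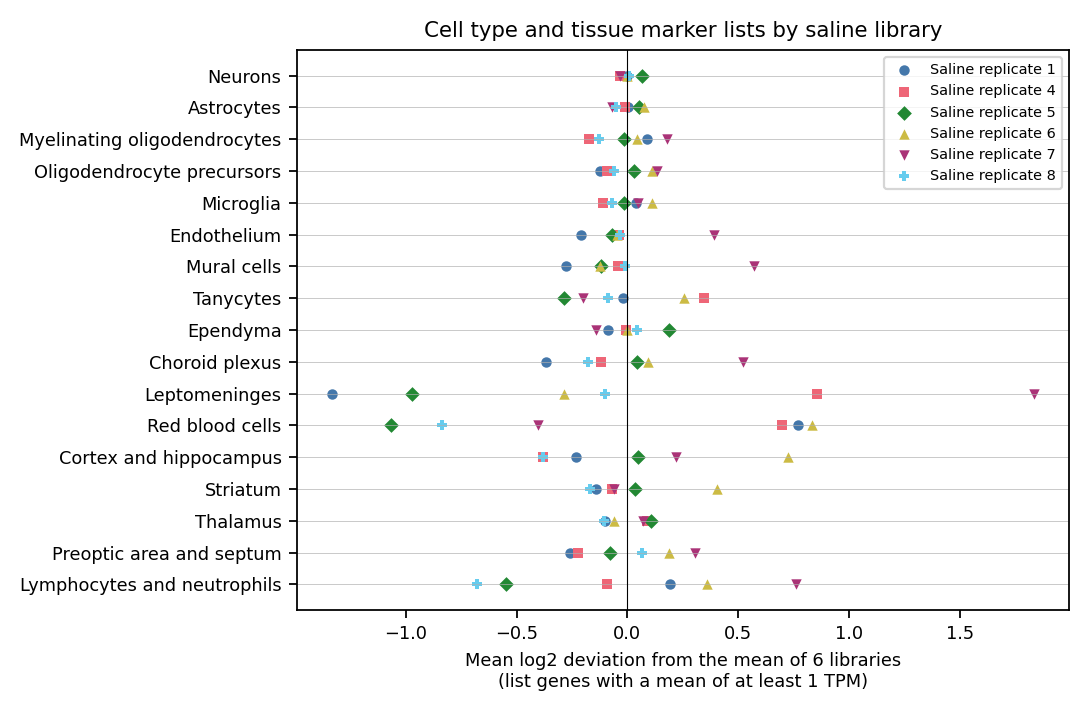
Mean log2 deviation of each library from the mean of the 6 (horizontal axis) over the genes of cell type and tissue lists with a mean of at least 1 TPM. Lists with 4 or fewer such genes, those of the anterior and intermediate pituitary and of fat cells, are not shown. Neurons lie between -0.04 and 0.07 and astrocytes between -0.07 and 0.08, whereas leptomeninges run from -1.33 in replicate 1 to 1.83 in replicate 7 and red blood cells from -1.06 to 0.83.

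Variation between the 6 libraries was then measured gene by gene as a biological coefficient of variation, the relative spread that remains once counting error is taken off, over 12592 genes with a mean of at least 5 CPM. The median was 5.07%, and 25.7% of genes sat at the lowest value the estimate can take, so their spread did not exceed counting error. Of 4452 genes with at least 50 CPM, 91.1% stayed below 10%, and 636 sat at that lowest value, so no order among the steadiest genes can be given. Only 73 genes (0.58% of those measured) reached 50%, and 420 (3.34%) differed more than 2-fold between the highest and lowest library. Moxd1 (50.9%) and Mrc2 (50.1%) were just inside the limit, and Aebp1 and Col1a2 (both 49.8%) just outside. Hcrt was the only neuropeptide precursor among the 73, and 0 of the 41 peptide receptors measured were.

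**Figure D3:**
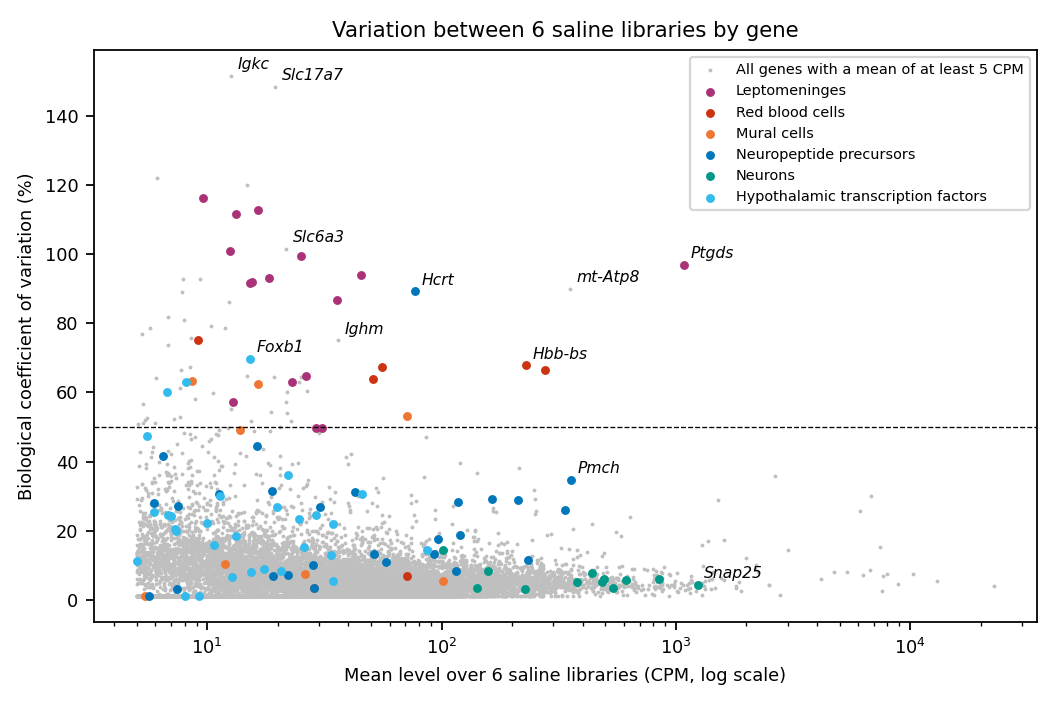
Biological coefficient of variation in percent against mean level in CPM (log axis) for 12592 genes (grey) with members of 6 lists in colour. The dashed line marks 50%. Above it lie 14 of the 16 leptomeningeal genes measured, the globins and a few neuronal genes such as Slc17a7, Slc6a3 and Hcrt, while neuronal markers reach at most 14.3%.

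Of the 73 variable genes, 31 were in a list, and leptomeningeal markers were the largest group among them. Replicate 7 held most of the high values. Of the 16 leptomeningeal markers measured, 14 were among the 73 genes. Ptgds was at 220, 581 and 3353 CPM at the lowest, median and highest (coefficient 96.9%), the sulfate transporter Slc13a4 at 2.01, 7.14 and 58.9 CPM (113%) and the matrix protein Ogn at 1.34, 5.96 and 44.6 CPM (112%). Slc22a6, Slc6a13, Fmod, Igf2, Slc6a20a, Igfbp2, Aldh1a2 and Mgp followed at 86.8% to 116%. In all 11, replicate 7 was highest and replicate 4 second. Prg4 and Cdh1, which were in no list, showed the same order with 120% and 122%. Over the 73 genes, replicate 7 was highest in 52, replicates 7 and 4 were the top pair in 44, and replicate 1 was lowest in 38. Over all 12592 genes replicate 7 was highest in 14.8%.

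Leaving out replicate 7 left 46 genes at 50% or more, 41 of them among the 73, so the count rested in part on that library. Ptgds was still at 72.9% and Slc13a4 at 81.7% without it. Genes of arterial smooth muscle, by contrast, were high in replicate 7 only: Acta2, an actin, was at 44.1 CPM there and at 10.4 to 12.97 CPM in the other 5, and its coefficient fell from 62.6% to the lowest value of the estimate. Tagln, Vtn and the immunoglobulin heavy chain Ighm likewise fell from 63.3%, 53.3% and 75.1% to 16.1%, 20.8% and 18.3%. Igkc, an immunoglobulin light chain of plasma cells, had the largest coefficient of all (152%), with 56.1 CPM in replicate 7, 10.6 in replicate 6 and 0.247 at the lowest. H2-Aa, H2-Ab1, H2-Eb1 and Cd74, which present antigen, were at 75.2% to 89.1%, with replicates 7 and 4 highest, the same libraries as the leptomeningeal markers. The part of leptomeningeal tissue in these immune values was not tested.

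Red blood cell genes varied in another order of libraries. Hbb-bs, a beta globin, was at 377, 320 and 386 CPM in replicates 1, 4 and 6. In replicates 5, 7 and 8 it was at 72.3, 120 and 105 CPM. These 2 sets were formed after the values were seen. Hbb-bt, Hba-a1, Hba-a2 and Alas2, the heme synthesis enzyme of red cells, split the libraries the same way, with coefficients of 63.8% to 75.2%. The globin genes have near-identical copies, so their split by gene is uncertain. Replicate 1, low in leptomeningeal genes, was high in globins, so the orders of the 2 lists differed.

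Genes of particular neuron groups also varied. Slc17a7, the vesicular glutamate transporter of cortex and hippocampus, was at 81.3 CPM in replicate 6, 26.04 in replicate 7, 5.18 in replicate 5 and 0.997 to 2.10 CPM in the other 3 (coefficient 148%). The 14 cortical and hippocampal markers together were highest in replicate 6 at 380 TPM, against 240 to 277 TPM in the others. Slc6a3, the dopamine transporter, was at 46.6 CPM in replicate 5 and 57.2 CPM in replicate 7 and at 5.31 to 9.09 CPM in the other 4 (102%). Hcrt was at 172, 12.8, 75.7, 20.98, 137 and 42.9 CPM in replicates 1, 4, 5, 6, 7 and 8 (89.3%), a spread over the whole range rather than a separate library.

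Foxb1, a transcription factor of the mammillary hypothalamus, was low in 2 libraries. It was at 5.24 and 3.82 CPM in replicates 1 and 6 and at 15.1 to 27.2 CPM in the other 4 (69.7%). Cpne9, Pvalb and Grm2, named after their values were seen, were lowest in replicates 1 and 6 too. Meis2, a factor of several forebrain neuron groups, was at 1.74 CPM in replicate 4 and at 11.1 CPM in replicate 6 (60.004%). Below 50%, list members among the 100 most variable genes were the leptomeningeal Aebp1 and Col1a2, the smooth muscle myosin Myh11 (49.0%), Rax of tanycytes (47.4%), the peptide Cck (44.5%), with a low of 5.91 CPM in replicate 1, and Crym (42.6%), with a high of 20.3 CPM in replicate 6.

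mt-Atp8 was the 1 mitochondrial gene among the 73. It was at 1097 CPM in replicate 4 and at 72.3 to 316 CPM in the other 5 (89.9%, and 58.9% without replicate 4). Its reading frame overlaps mt-Atp6, whose coefficient was 8.50%, so reads can be given to either gene, and the level is uncertain.

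**Figure D4:**
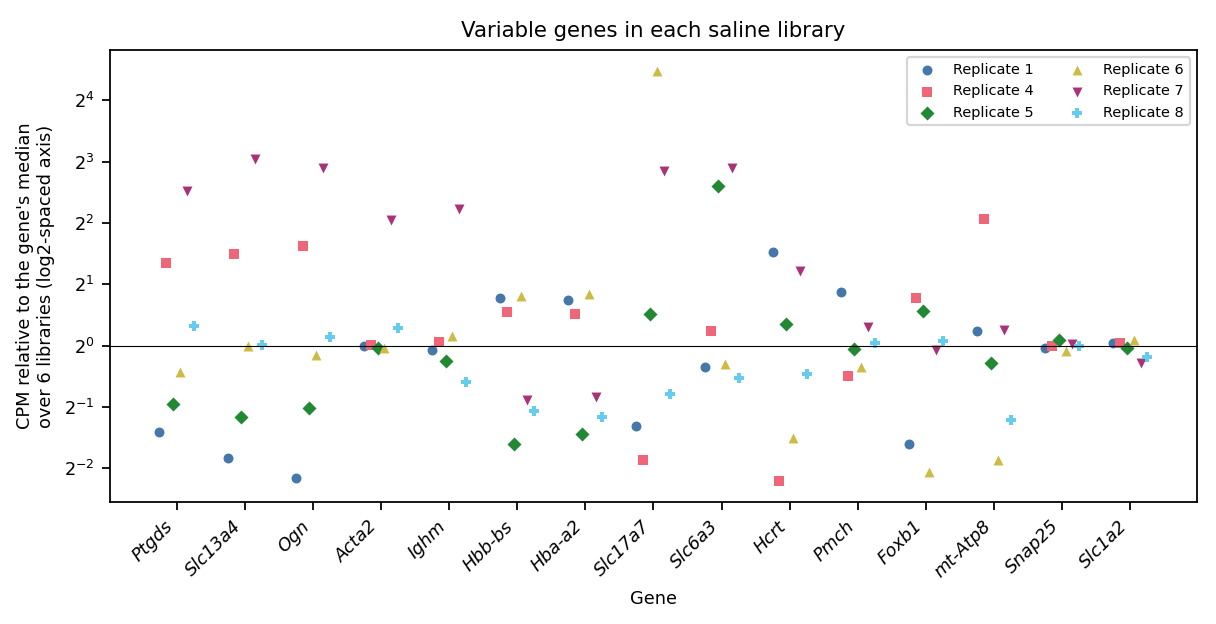
CPM in each of the 6 saline libraries divided by the gene's median over them (log2-spaced axis) for 13 variable genes and the stable genes Snap25 and Slc1a2. Replicate 7 is highest for Ptgds, Slc13a4, Ogn, Acta2 and Ighm, replicates 1, 4 and 6 for the globins, replicate 6 for Slc17a7, and replicates 1 and 6 are low for Foxb1.

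The same measure in the treated mice, which share no library with the saline group, found many of these genes again. At 50% or more there were 45 of 12543 genes in PSD-95i and 105 of 12503 in PICK1i. Of the 73 genes, 57 could be measured in PSD-95i and 25 reached 50%, which is 34.2% of the 73 and 55.6% of the PSD-95i genes. In PICK1i, 58 could be measured and 34 reached 50%, which is 46.6% of the 73 and 32.4% of the PICK1i genes. Ptgds was at 73.4% and 75.5% in the 2 groups, Hcrt at 68.2% and 58.0%, Slc6a3 at 85.7% and 118% and mt-Atp8 at 64.7% and 62.3%. Foxb1 was lower there, at 26.6% and 43.0%, and Ighm at 26.1% and 31.3%. The differences in coefficient between groups were not tested.

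Saline was set against each treatment to show how far the baseline differs from treated hypothalamus, in 1 edgeR quasi-likelihood fit of 22 libraries over 15820 genes with Benjamini-Hochberg adjustment at 0.05. Both comparisons use the same 6 saline libraries. Against PSD-95i, 0 genes passed (percent called 0), while 388 had an unadjusted p below 0.05 and DESeq2 called 0 as well. Against PICK1i, 5 genes passed (0.0316% of genes tested), 4 higher and 1 lower in PICK1i, and 3839 had an unadjusted p below 0.05. None of the members of the 32 lists passed in either comparison. Groups did not overlap in 10 genes (0.0632%) for PSD-95i and in 54 (0.341%) for PICK1i.

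The 5 genes changed by less than 2-fold. Esrra, a nuclear receptor that drives mitochondrial genes, was at 24.2 to 28.9 CPM in saline and 29.4 to 48.3 CPM in PICK1i, with no overlap and a log2 difference of 0.46 ± 0.08 (SE, adjusted p = 0.0358 by edgeR, higher in 8 of 8). Nefh, the heavy neurofilament protein, rose by 0.35 ± 0.06 (adjusted p = 0.0358, ranges overlapping). Ndufaf6, which helps to assemble complex I of the respiratory chain, rose by 0.67 ± 0.12 and Zfp276, a zinc finger protein, by 0.43 ± 0.08 (both adjusted p = 0.0432), and neither overlapped with saline. Mycl, a transcription factor of the Myc family, fell by 0.58 ± 0.11 (adjusted p = 0.0432) and did not overlap. The number of calls over all genes moved with the libraries used. It was 0 without the 4 PICK1i libraries of replicates 1, 2, 5 and 6 and 0 without saline replicate 4, 6 or 7. Without saline replicate 1 or 8 it was 1, and without saline replicate 5 it was 4. The calls were not always among these 5 genes: without saline replicate 8 each of the 5 had an adjusted p of 0.0547 by edgeR. Without saline replicate 5, Zfp276 (adjusted p = 0.0669 by edgeR) and Mycl (0.0629) did not pass. Over 13 settings the differences themselves were 0.37 to 0.48 for Esrra, 0.32 to 0.42 for Nefh and 0.62 to 0.72 for Ndufaf6. They were 0.32 to 0.45 for Zfp276 and -0.59 to -0.40 for Mycl. These settings share most of their libraries with the fit that chose the genes, so the unchanged direction is no further support. DESeq2 called 1036 genes in the same comparison. PICK1i also had the larger spread, a common coefficient of 15.6% against 8.77% in saline and 7.35% in PSD-95i.

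For PSD-95i the smallest p-values belonged to Hr (log2 difference 0.30 ± 0.08), Krcc1 (-0.36 ± 0.10), Nefh (0.22 ± 0.06), Airn (-0.70 ± 0.20) and Alas2 (-1.67 ± 0.47), all with an adjusted p of 1.00 in edgeR. Alas2 is a red cell gene, and the red blood cell markers summed to 902 to 4198 TPM at baseline, 643 to 2273 TPM after PSD-95i and 961 to 6133 TPM after PICK1i. The part of these cells in that difference was not tested.

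The feeding peptides and their receptors showed no call, where 0 and 5 of all 15820 genes were called against PSD-95i and PICK1i. Npy in saline was at 42.4 ± 13.04 CPM, against 41.0 ± 10.2 after PSD-95i and 48.7 ± 17.5 after PICK1i (n = 8 in each treated group), and Pomc at 117 ± 32.2, 113 ± 39.4 and 120 ± 66.6 CPM. Agrp was at 3.82 ± 1.35, 3.80 ± 1.88 and 4.43 ± 2.36 CPM. The log2 differences of Avp, Oxt, Pmch, Cartpt and Hcrt lay between -0.42 and 0.30 in the 2 comparisons, with standard errors of 0.15 to 0.48, so differences of that size were not resolved. Lepr was at 6.55 ± 1.63 CPM in saline and 4.56 ± 1.19 in PICK1i (log2 difference -0.49 ± 0.18, edgeR adjusted p = 0.109, below the saline median in 8 of 8 libraries). Dlg4 differed by 0.03 ± 0.05 and 0.07 ± 0.05, and Pick1 by -0.04 ± 0.07 and 0.18 ± 0.07 (adjusted p = 0.124 for PICK1i). Median log2 differences of the neuropeptide precursors were -0.05 against PSD-95i and 0.13 against PICK1i, and of the peptide receptors -0.03 and -0.21, beside medians of -0.0035 and -0.0037 over all genes. Mitochondrially encoded messages moved beside these values: their median log2 difference was -0.04 against PSD-95i and 0.35 against PICK1i, with 0 and 13 of 13 genes above 0 and none called. Mitochondrial genes took 9.60% to 10.7% of counts in saline, 8.51% to 10.4% in PSD-95i and 8.70% to 16.6% in PICK1i. The 4 PICK1i libraries of replicates 1, 2, 5 and 6, left out above for this reason, held 13.5% to 16.6% and the other 4 held 8.70% to 11.2%. Its part in the receptor and precursor values was not tested.

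Levels of the marker lists gave the background to these comparisons. The leptomeningeal sum was 656 to 9648 TPM at baseline, 818 to 5869 after PSD-95i and 731 to 5213 after PICK1i. The ranges of both treated groups thus lay within that of saline, whose highest value was that of replicate 7. The median log2 difference of its 19 genes tested was -0.48 and -0.64, with 0 of the 19 above 0 in each comparison and none called. Neuronal markers summed to 5422 ± 172, 5773 ± 154 and 5514 ± 611 TPM and tanycyte markers to 276 ± 36.8, 263 ± 36.5 and 204 ± 42.2 TPM.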

How the data were processed

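RNA of whole hypothalamus was sequenced as stranded poly(A) libraries, per the labels' protocols. The authors deposited estimated counts per transcript and per gene; bcl2fastq 2.20.0, STAR, Salmon and GRCm38 are named in the submitters' processing notes, while further versions, the annotation and any strand setting are not given there. The members and gene lists were chosen with earlier results of these data known.

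Of 45706 genes, 45143 matched GENCODE M21, and 99.5% of the counts of the 6 libraries lay on transcripts with a length. TPM was computed here from transcript counts and annotated lengths, and CPM from gene counts with TMM scaling. Counts were rounded for edgeR 4.0.16 (R 4.3.3, limma 3.58.1). The biological coefficient of variation is the square root of the unshrunken dispersion, over genes with a mean of at least 5 CPM. The quasi-likelihood test used filterByExpr (minimum count 10) and Benjamini-Hochberg adjustment at 0.05, on 6 saline, 8 PSD-95i and 8 PICK1i libraries. DESeq2 1.42.0, RLE scaling, other filters, a replicate block and left-out libraries were alternatives. P-values set a group difference against the spread between libraries. That spread may be partly technical in saline, because which mouse gave which library is not stated. The limit given for a count of 0 covers counting error only. On simulated data with the same spread in every group, 94.5% of 200 genes changed 2-fold were recovered in the PSD-95i comparison over 15686 genes. Of the calls 5.97% were false. Smaller changes and unequal spread between groups were not simulated.

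Genes named were the 20 highest, the highest 10 neuropeptide precursors and peptide receptors and the highest 5 of every other list, list members among the 100 most variable genes, the 25 most variable genes with a symbol, feeding and target genes fixed by name, and per comparison the genes with the smallest p. Other list members were named for their role. The 10 steadiest genes were to be named but share 1 lowest value with others, so none is.

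A few genes of the lists are not reported here by name; list counts and sums include them.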

Additional observations from a re-analysis of the deposited data

Results flagged for a closer look

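Of 247 values tested (215 genes of at least 1 TPM and 32 list sums), 31 (12.6%) had 1 library farther from the other 5 than Dixon's 95% critical value for 6 values allows. Chance gives about 1 in 20 for groups not chosen by their spread, but 47 of the 215 genes were named for their variation and list sums hold their own members, so the share is no test. Of these 47 genes 13 were past the value, of the other 168 genes 13, and of the list sums 5. Replicate 7 was highest in 17 of them, in TPM beside the range of the others. Vascular and smooth muscle genes were Vtn at 253 (66.4 to 117), Acta2 at 42.0 (9.91 to 12.6), Tagln at 27.5 (5.51 to 9.33), Myh11 at 9.07 (2.37 to 3.50), Flt1 at 42.2 (31.7 to 34.3) and Slc2a1 at 146 (102 to 118), with the mural cell sum at 419 (157 to 224). Leptomeningeal markers were Bgn at 54.5 (8.41 to 24.5), Slc13a4 at 35.1 (1.48 to 12.1) and Slc6a13 at 50.03 (1.59 to 18.7), and Igfbp6, in no list, was at 39.7 (2.09 to 16.03). Immune values were Ighm at 141 (20.1 to 34.3) and Igkc at 204.9 (0.917 to 39.6). The lymphocyte and neutrophil sum was at 179.9 (35.3 to 72.9), but most of it was Ighm, so it is not a separate value. Apod was at 609 (223 to 302), Ttr at 26.8 (1.83 to 7.86) and the choroid plexus sum at 76.4 (45.7 to 55.2). Pcsk2 was lowest in replicate 7 at 102 (116 to 121).

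Replicate 6 was highest in 8. These were Slc17a7 at 55.6 TPM (0.661 to 17.34), Lamp5 at 25.5 (14.7 to 17.5), Wipf3 at 30.1 (18.5 to 19.5) and the cortex and hippocampus sum at 379.9 (240 to 277), the striatal genes Pde10a at 27.9 (18.97 to 20.9) and Ppp1r1b at 32.7 (13.3 to 20.5), and Crym at 25.9 (7.603 to 11.5) and Jun at 44.3 (35.1 to 38.1). Replicate 4 was highest for mt-Atp8 at 10402 TPM (706 to 3002) and Tbx19 at 2.89 (1.07 to 1.56). Rgs5 was lowest in replicate 1 at 42.9 TPM (50.2 to 54.0), Cspg5 highest in replicate 8 at 46.1 (41.05 to 42.8) and the neuronal sum highest in replicate 5 at 5758 (5257 to 5405).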

How the results depend on the processing

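Against PSD-95i, 0 genes were called in every alternative except a fit of only the 2 groups compared, which called 1. Against PICK1i the 5 calls became 2 with no filter on low counts, 0 in a fit of only the 2 groups, 1434 with all 8 saline libraries, 1036 with DESeq2, 0 without the 4 PICK1i libraries of replicates 1, 2, 5 and 6, 5 with RLE size factors, and 0 to 4 when each saline library was left out in turn. These counts are over all genes, and the called genes changed too: with no filter, only Esrra of the 5 passed (adjusted p = 0.0346 by edgeR). The cause of these changes was not tested. With the replicate number as a block, 0 genes were called in both comparisons. Whether the numbers pair the libraries is not stated in the labels. The correlation of deviations over 20 same-numbered pairs ran from -0.197 to 0.149 with 2 over 0.1. A weak correlation over all genes cannot exclude a pairing, so this is not settled. The 5 genes kept their direction in all 13 settings, which share most of their libraries. Esrra and Nefh were called in 5 of the settings, Ndufaf6 in 4, Zfp276 in 3 and Mycl in 2. The 73 variable genes became 24 at a mean of at least 20 CPM, 241 at 1 CPM, 32 with shrunken dispersion, 298 with all 8 saline libraries and 46 to 92 when each library was left out. The 486 genes holding 50% of abundance became 933 without mitochondrially encoded genes and 989 by CPM. Of 144 coefficients of the 25 most variable genes with a library left out, 143 stayed within 1.5 times; 6 of 150 had no estimate because the mean fell below 5 CPM (5 without replicate 7, Igkc among them, and 1 without replicate 4). Genes with few counts, such as Agrp and Lepr, are the least precise.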

Other observations

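Several lists not described above add to the baseline. Immediate early genes, which neurons switch on when active, were measured 2 h after the last injection: Jun was at 37.8 ± 3.34 TPM (SD, n = 6), Junb at 27.1 ± 6.77, Egr1 at 17.6 ± 3.56 and Fos at 13.5 ± 3.94 TPM. Their sum was 176 to 261 TPM and highest in replicate 6. Of 19 tested, 0 were called in either comparison, beside 0 and 5 of all 15820 genes. The median log2 difference was -0.01 against PSD-95i and 0.26 against PICK1i, with 9 and 16 of the 19 above 0. Medians over all genes were -0.0035 and -0.0037. Genes that glucocorticoids raise were led by the metallothioneins Mt1 at 676 ± 53.8 and Mt2 at 358 ± 27.7 TPM and by Tsc22d3 at 124 ± 15.1 TPM. Their sum was 1398 to 1630 TPM. Of 18 tested, 0 were called, beside the same 0 and 5 of 15820 genes. The median log2 difference was 0.09 against PSD-95i and 0.23 against PICK1i, with 15 of the 18 above 0 in each, beside the same medians over all genes. Against PICK1i, 3839 of the 15820 genes had an unadjusted p below 0.05 in edgeR. The part of the mitochondrial share of the PICK1i libraries in these list values was not tested.

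Several markers of neighbouring brain regions are also made by hypothalamic neurons, so their sums do not separate the tissues. Thalamic markers summed to 491 to 580 TPM, mostly Calb2 at 363 ± 37.4 TPM. Striatal markers summed to 318 to 423 TPM, mostly the neuropeptide precursor Penk, and preoptic and septal markers to 205 to 415 TPM, mostly Trh. The intermediate pituitary list summed to 259 to 418 TPM, mostly Pomc and Pcsk2, which the hypothalamus also makes. Ependymal markers, led by Rarres2 at 39.6 ± 3.87 TPM, summed to 204 to 241 TPM. Sums were 321 to 400 TPM for oligodendrocyte precursors, 682 to 775 for microglia and 1215 to 1488 for endothelium.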
